A study of Mus musculus with 9 samples.

Results

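Around *Wwtr1* on mouse chromosome 3 lie genes whose RNA was much lower in mouse embryonic fibroblasts (MEFs) labelled *Hnrnpk*_SAM than in empty vector MEFs. Next to them lie genes whose RNA was slightly lower, about the same or higher. The 10 genes described here, *Tm4sf1*, *Tm4sf4*, *Commd2*, *Rnf13*, *Pfn2*, *Tsc22d2*, *Serp1*, *Selenot*, *Mbnl1* and *P2ry1*, were taken by name from the 15184 genes of the table. They lie between 57 and 61 Mb of the chromosome and were selected because their levels in these same libraries were either lowered or spared. Spared is the name used here for *Tsc22d2*, *Serp1* and *Selenot*. *Tsc22d2* and *Serp1* were lower too, but by much less. Their fold changes against empty vector, and the order of those changes along the chromosome, are therefore a description of how they were chosen, and their counts of calls are given for description only.

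MEFs are fibroblasts grown from mouse embryos. The study asked what a raised level of the RNA-binding protein HNRNPK does to such cells, and RNA-Seq of polyA+ RNA was done in 9 libraries, 3 of empty vector MEFs and 3 of each of the *Hnrnpk*_SAM lines SAM1 and SAM2. SAM, the synergistic activation mediator, is a Cas9 without cutting activity that carries transcriptional activators to a gene chosen by a guide RNA. According to the methods, wild-type MEFs received it on the lentiviruses lentiMPHv2 and lentiSAMv2 and were selected with blasticidin and hygromycin, controls carried a lentiSAMv2 plasmid with a nontargeting guide, and the guides to *Hnrnpk* were used one at a time. The methods print 1 and the same sequence for the second *Hnrnpk* guide and for the nontargeting guide, the extraction protocol names sgRNA2 cells beside empty vector ones, and the labels do not say which guide each line carries. It is not stated either whether a line is 1 clone or whether its libraries came from separate cultures, so errors and p-values measure the spread between libraries, which may be technical.

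In the 8 libraries whose reads were recovered from the normalized values, 41759636 to 49026626 reads fell on the listed genes. All 11 fibroblast markers looked for were listed, with summed levels of 1036178 to 1127987 in empty vector, 877974 to 934729 in SAM1 and 1159697 to 1198282 in SAM2, while *Ptprc*, *Adgre1*, *Epcam*, *Myod1* and *Sox10*, which define other cell types, were not. The fibroblast sums thus did not overlap between groups, and sums over lists of other cell types differed between groups too. The 4 listed endothelial markers of 6 summed to 301 to 357 in empty vector, 4613 to 4988 in SAM1 and 638 to 689 in SAM2, and the 2 listed neural markers of 5 to 2126 to 2287, 8858 to 9048 and 8211 to 8414. The 4 listed macrophage markers of 6 gave 1487 to 1524, 2513 to 2673 and 1756 to 1775, the 2 epithelial markers of 6 gave 42.1 to 50.1, 110 to 113 and 42.7 to 52.4, and the only listed skeletal muscle marker of 5 gave 44.4 to 83.0, 90.8 to 111 and 223 to 245. *Kdr*, chosen after its values were seen, made up most of the endothelial sum, with means of 211 ± 31.5 (SD, n = 3), 4693 ± 194 and 536 ± 27.3. The other listed endothelial markers did not share this direction. The mean of *Cdh5* was lower in both lines, with 77.6 ± 6.22 in empty vector, 64.7 ± 4.09 in SAM1 and 51.2 ± 16.4 in SAM2. That of *Tek* was lower in SAM1 and higher in SAM2, and that of *Pecam1* was higher in SAM1 only (29.5 against 12.9 in empty vector). The part of these cell types in the results was not tested. *Hnrnpk*, the targeted gene, had normalized counts of 25058, 26098 and 26164 in empty vector, 24102, 24045 and 23619 in SAM1, and 26608, 26859 and 26221 in SAM2. Every SAM1 library was below and every SAM2 library slightly above empty vector, with log2 fold changes of -0.11 ± 0.03 (SE; limma, adjusted p = 0.00252) and 0.04 ± 0.03 (adjusted p = 0.159), and of -0.03 ± 0.05 (adjusted p = 0.642) for both lines together. After quantile normalization these became 0.094, 0.22 and 0.16, all called higher.

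The proteins of the segment are of several kinds. TM4SF1 and TM4SF4 are tetraspan membrane proteins of the L6 family that act in cell adhesion and migration, and the protein of *Wwtr1*, TAZ, is a coactivator of TEAD transcription factors at the end of the Hippo pathway. RNF13 and COMMD2 belong to the endosomal system, SERP1 and SELENOT to the endoplasmic reticulum, PFN2 binds actin, MBNL1 is a regulator of alternative splicing and P2RY1 is a receptor for ADP. The genes are grouped here by their stretch of chromosome and not by a pathway, so their levels are described in the order in which they lie.

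A promoter sequence was found for 8 of the 10 genes in a RefSeq table of GRCm38.p6, *Mbnl1* having a pair of start sites, and none was matched for *Commd2* and *Tsc22d2*. The 4 windows below are shown because they belong to 3 of the genes that were most lowered and to the gene that differed least. Each holds the 250 bases before the start site, 5′ to 3′ on the strand of the gene. They are chr3:57735807-57736056 (+) for *Rnf13*, chr3:57847758-57848007 (-) for *Pfn2*, chr3:61002535-61002784 (+) for *P2ry1* and chr3:58576386-58576635 (+) for *Selenot*. Capitals mark any match, on either strand, to GGAATG (TEAD factors), TGANTCA (AP-1), GGGCGG (SP factors) or CCAAT (NF-Y).
Rnf13: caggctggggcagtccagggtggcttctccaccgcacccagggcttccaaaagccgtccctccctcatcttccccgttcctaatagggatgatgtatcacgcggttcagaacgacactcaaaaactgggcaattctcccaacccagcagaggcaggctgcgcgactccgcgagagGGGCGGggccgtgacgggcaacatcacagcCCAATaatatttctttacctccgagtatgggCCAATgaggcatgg
Pfn2: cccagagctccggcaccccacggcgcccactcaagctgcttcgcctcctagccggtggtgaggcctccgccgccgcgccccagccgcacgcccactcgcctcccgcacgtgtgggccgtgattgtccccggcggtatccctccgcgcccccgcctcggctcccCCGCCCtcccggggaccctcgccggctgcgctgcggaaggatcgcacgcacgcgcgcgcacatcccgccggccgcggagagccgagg
P2ry1: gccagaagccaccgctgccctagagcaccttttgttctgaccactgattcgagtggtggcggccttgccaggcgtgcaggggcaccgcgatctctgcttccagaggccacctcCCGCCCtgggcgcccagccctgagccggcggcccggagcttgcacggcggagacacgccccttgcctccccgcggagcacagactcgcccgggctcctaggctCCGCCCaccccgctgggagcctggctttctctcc
Selenot: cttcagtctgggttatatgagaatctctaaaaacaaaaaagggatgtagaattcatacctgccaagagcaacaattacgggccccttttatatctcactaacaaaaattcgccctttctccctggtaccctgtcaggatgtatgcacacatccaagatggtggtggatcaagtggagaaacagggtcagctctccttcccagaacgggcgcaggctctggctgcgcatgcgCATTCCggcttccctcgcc
GGAATG, the letters of the TEAD site, was in 1 of the 9 windows of the segment genes, that of *Selenot*, and in 12.6% of all 32851 windows of the same length. TGANTCA was in 0 of 9 and in 6.75% of all windows. GGGCGG was in 4 of 9 against 32.7% of all windows, and CCAAT in 5 of 9 against 33.8%. The windows of *Pfn2* and *P2ry1* hold only GGGCGG or its complement, that of *Rnf13* holds both GGGCGG and CCAAT, and the motifs searched do not overlap one another in these windows. The number of CpG ranged from 1 for *Tm4sf1* to 38 for *Pfn2*, so lowered genes stood at both ends. It was 20 for *P2ry1*, 14 for *Rnf13*, 25 for the spared *Serp1* and 8 for the spared *Selenot*, beside a median of 6 over all windows. A match is a run of letters and not a shown binding site.

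Coordinates of genes from here on are those of GRCm39 with GENCODE vM39, which cannot be set beside the GRCm38 positions above, and all 10 genes are protein-coding. Levels are normalized counts, which are the reads of a gene divided by the size factor of the library. Fold changes are log2 differences of (normalized count + 1) from limma with their standard errors, with all 6 libraries labelled *Hnrnpk*_SAM against the 3 of empty vector unless a line is named. For both lines together the SE also holds the difference between the lines, as for *Rnf13*, where it was 0.159 against 0.0279 in SAM1. A gene counts as called when its adjusted p was under 0.05 over all genes. In bulk RNA, less RNA of a gene per cell and fewer cells with that RNA cannot be told apart.

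*Tm4sf1* (minus strand, 57193032 to 57209430) is the first gene of the segment and one of the most abundant messages of these fibroblasts. Normalized counts of the gene were 74723, 85234 and 80381 in empty vector, 17669, 18612 and 17106 in SAM1, and 12022, 11992 and 11941 in SAM2. The 3 groups did not overlap, with empty vector highest and SAM2 lowest. The mean fell from 80113 ± 5261 (SD, n = 3) to 17796 ± 761 in SAM1 and 11985 ± 41.3 in SAM2, which is 4.50 and 6.68 times lower. Per kb of exon, the level of *Tm4sf1* in empty vector was 18661, rank 47 of the 14791 genes with a length. In SAM1 it ranked 266 and in SAM2 451, so it remained an abundant message in both lines.

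Its relative *Tm4sf4* (plus strand, 57294744 to 57349216), better known from liver and gut, was expressed at a low level. Libraries had normalized counts of 89.0, 81.9 and 118 in empty vector, 40.8, 28.6 and 43.9 in SAM1, and 28.7, 31.5 and 38.0 in SAM2. Every library of the lines lay below every empty vector library, and the lines overlapped each other. The means were 96.3 ± 19.1 (SD, n = 3), 37.8 ± 8.09 and 32.7 ± 4.80. With few reads behind it, *Tm4sf4* had a log2 fold change of -1.43 ± 0.19 (SE), the smallest of the lowered genes of this end, against -2.45 ± 0.17 for *Tm4sf1*.

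*Wwtr1* (minus strand, 57363067 to 57483331), not one of the 10, follows *Tm4sf4* and gives the segment its name. Its normalized counts were 216588, 203745 and 215415 in empty vector, 10490, 10052 and 10551 in SAM1, and 14181, 13922 and 13885 in SAM2. It was the 5th or 6th highest of all listed genes in each empty vector library, and the groups did not overlap. Its log2 fold change was -4.14 ± 0.13 (SE), between those of *Tm4sf1* before it and of *Commd2* after it.

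*Commd2* (minus strand, 57551770 to 57559148) encodes a COMM domain protein of the Commander complex, which returns membrane proteins from endosomes to the cell surface. Normalized counts of the gene were 41660, 46793 and 44505 in empty vector, 1522, 1619 and 1416 in SAM1, and 1832, 1848 and 1808 in SAM2. Empty vector was far above both lines, and SAM1 lay below SAM2 in every library. The mean of 44319 ± 2571 (SD, n = 3) was 29.2 times that of SAM1 (1519 ± 101) and 24.2 times that of SAM2 (1829 ± 19.9). *Commd2* ranked 78 per kb in empty vector, 3945 in SAM1 and 3432 in SAM2.

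*Rnf13* (plus strand, 57643376 to 57743818) encodes a ubiquitin ligase of endosome and lysosome membranes with a protease-associated domain and a RING finger. Libraries had normalized counts of 136089, 134654 and 142198 in empty vector, 5620, 5499 and 5441 in SAM1, and 8050, 8167 and 8061 in SAM2. The order was again empty vector, SAM2, SAM1, with no overlap. From 137647 ± 4006 (SD, n = 3), the mean fell 24.9 times in SAM1 (5520 ± 91.1) and 17.0 times in SAM2 (8093 ± 64.4). Among the 10 genes *Rnf13* had the highest normalized count in empty vector before division by length, 12th to 14th of all listed genes, but per kb it stood behind *Tm4sf1*, *Commd2* and *Pfn2*.

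*Pfn2* (minus strand, 57738719 to 57755519) encodes profilin 2, a protein that binds actin monomers and is best known from neurons. The 3′ ends of *Pfn2* and *Rnf13* overlap on opposite strands over 5100 bases, and the strand setting of the counting is not given in the sources used here, so reads of the overlap may be shared. Its normalized counts were 69219, 75216 and 73318 in empty vector, 2725, 2728 and 2760 in SAM1, and 3695, 3584 and 3521 in SAM2. The groups lay apart in the same order as for *Commd2* and *Rnf13*. The mean of 72584 ± 3065 (SD, n = 3) was 26.5 times that of SAM1 (2738 ± 19.2) and 20.2 times that of SAM2 (3600 ± 88.0).

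*Commd2*, *Rnf13* and *Pfn2* are of different length and role, yet their levels per kb were much alike within each group. They lay between 9546 and 12706 per kb in empty vector, between 383 and 435 in SAM1 and between 524 and 561 in SAM2. The median over all listed genes was 150 to 158 per kb in the 3 groups. In the lines these genes were thus still above the median gene, although they had left the 106 highest ranks that all 3 held in empty vector.

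**Figure D1:**
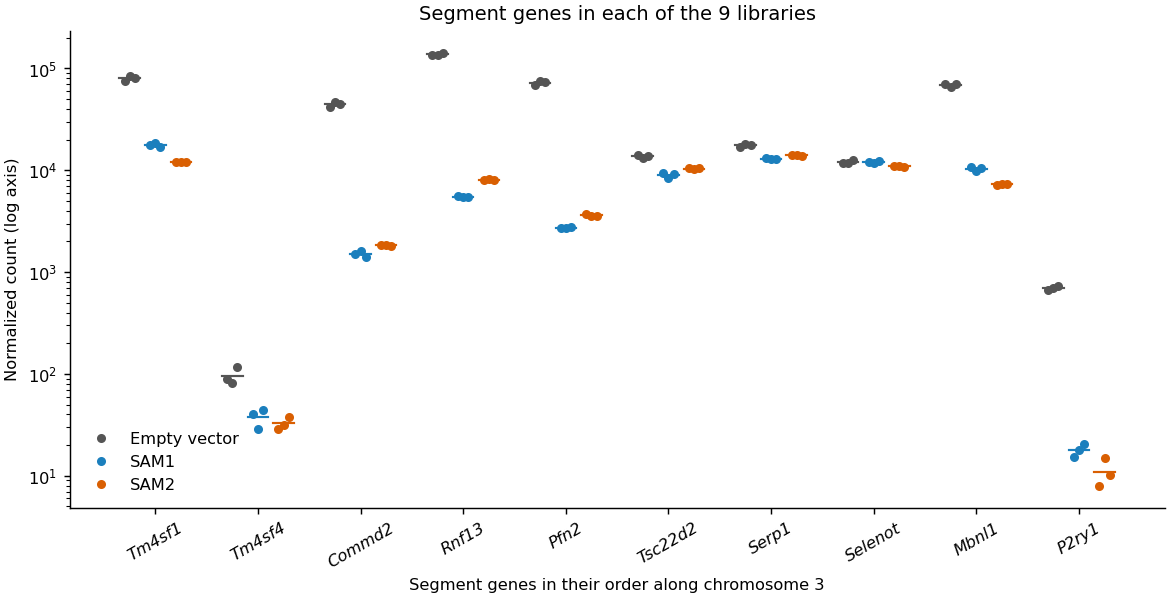
Normalized counts (log axis) of the 10 segment genes in the 9 libraries. Points are libraries and short lines the means of 3. Empty vector lies above both lines for every gene but *Selenot*, with the widest gap for *P2ry1* and narrow gaps for *Tsc22d2* and *Serp1*.

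After *Pfn2* comes a stretch of 567 kb with no listed gene, and beyond it the spared genes. *Tsc22d2* (plus strand, 58322110 to 58374204) encodes a leucine zipper protein of the TSC22 domain family. Normalized counts of the gene were 14192, 13124 and 13947 in empty vector, 9316, 8383 and 9239 in SAM1, and 10428, 10317 and 10485 in SAM2. Empty vector was still highest and SAM1 lowest without overlap, but the mean of 13755 ± 560 (SD, n = 3) was only 1.53 times that of SAM1 (8979 ± 518) and 1.32 times that of SAM2 (10410 ± 85.2).

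*Serp1* (minus strand, 58427238 to 58433318) encodes a small stress-associated protein of the endoplasmic reticulum that sits at the translocon. Libraries had normalized counts of 17091, 17924 and 17853 in empty vector, 13185, 12846 and 13008 in SAM1, and 13995, 14160 and 13789 in SAM2. The groups were apart in the order empty vector, SAM2, SAM1, and the steps were small, with 17623 ± 462 (SD, n = 3) being 1.35 and 1.26 times the means of SAM1 (13013 ± 169) and SAM2 (13981 ± 186). *Serp1* overlaps *Eif2a*, on the other strand, by 584 bases.

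*Selenot* (plus strand, 58484057 to 58501499) encodes a thioredoxin-like selenoprotein of the endoplasmic reticulum and differed least of the 10. Its normalized counts were 11852, 11915 and 12486 in empty vector, 12182, 11783 and 12311 in SAM1, and 10993, 11146 and 10832 in SAM2. Empty vector and SAM1 overlapped, while the SAM2 libraries lay a little lower. Its means were 12084 ± 349 (SD, n = 3), 12092 ± 275 and 10990 ± 157, and the log2 fold change was 0.00 ± 0.03 (SE) in SAM1 and -0.14 ± 0.03 in SAM2, and after quantile normalization 0.16 and -0.03. *Serp1* and *Selenot* kept about the same place among all genes per kb, with ranks of 390, 485 and 444 for *Serp1* and 518, 456 and 521 for *Selenot* in empty vector, SAM1 and SAM2.

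The lowered genes returned with *Sucnr1*, 737 kb beyond *Igsf10*, the last gene of the stretch that holds the spared genes. *Sucnr1*, not one of the 10, passed the filter only through empty vector, and *Mbnl1* lies beyond it. *Mbnl1* (plus strand, 60380102 to 60537183) encodes muscleblind-like 1, the splicing regulator that is sequestered by repeat RNA in myotonic dystrophy. Normalized counts of the gene were 70494, 65825 and 70314 in empty vector, 10672, 9912 and 10485 in SAM1, and 7151, 7341 and 7319 in SAM2. No groups overlapped, and here SAM2 was the lowest. The mean of 68878 ± 2645 (SD, n = 3) was 6.65 times that of SAM1 (10356 ± 396) and 9.47 times that of SAM2 (7270 ± 104). The genes *Gm37589* and *Gm37488*, of no known class, lie on the same strand and overlap *Mbnl1* by 3994 and 3374 bases, so reads could be split between them.

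*P2ry1* (plus strand, 60910159 to 60916403), the gene of an ADP receptor that signals through Gq, is the last gene of the segment and was the lowest relative to empty vector. Libraries had normalized counts of 668, 696 and 728 in empty vector, 15.2, 17.8 and 20.5 in SAM1, and 7.91, 14.8 and 10.2 in SAM2. Every library of SAM2 was below every library of SAM1, and all 6 were near the limit of 10 used by the authors for keeping a gene. The mean of 697 ± 29.9 (SD, n = 3) was 39.1 times that of SAM1 (17.8 ± 2.66) and 63.5 times that of SAM2 (11.0 ± 3.53). The log2 fold change of *P2ry1* was -5.56 ± 0.27 (SE) for both lines and moved to -4.88 with a pseudocount of 10 in place of 1. With a pseudocount of 1, none of the 15184 genes had a lower log2 fold change for both lines than *P2ry1*.

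Over the 10 genes, log2 fold changes ran from -5.56 for *P2ry1* to -0.07 ± 0.05 (SE) for *Selenot*, with -4.73 ± 0.09 for *Commd2*, -4.53 ± 0.12 for *Pfn2*, -4.36 ± 0.16 for *Rnf13*, -2.99 ± 0.15 for *Mbnl1*, -0.51 ± 0.07 for *Tsc22d2* and -0.39 ± 0.04 for *Serp1*. Their median was -2.72 for both lines together, -2.45 in SAM1 and -2.99 in SAM2, beside medians over all genes of 0.01, 0.01 and 0.00. For both lines together 9 of the 10 were called lower and 0 higher, where 27.0% of all genes were called lower and 26.8% higher. In SAM1 against empty vector 9 of 10 were called lower (36.9% of all genes, and 37.3% higher), and in SAM2 10 of 10 (35.3%, and 35.2% higher), or 9 after quantile normalization. The comparisons share the empty vector libraries. All 6 libraries of the lines lay below all 3 of empty vector for 9 of the 10 genes and for 27.2% of all genes. As many as 6 of the 10 had a log2 fold change of -2 or lower in both lines, which 92 of all genes had (0.606%). Since these genes were picked by the same values, nothing is read from these counts. None of the 10 passed the filter on low values only through empty vector, since each was above 10 in all 3 libraries of SAM1 and in at least 2 of SAM2.

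*Tsc22d2*, just past the first lowered genes, had a log2 fold change of -0.51 and *Pfn2*, just before it, one of -4.53. The least lowered gene of the first stretch was *Tm4sf4*, at -1.33 ± 0.19 (SE) in SAM1 and -1.52 ± 0.19 in SAM2.

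**Figure D2:**
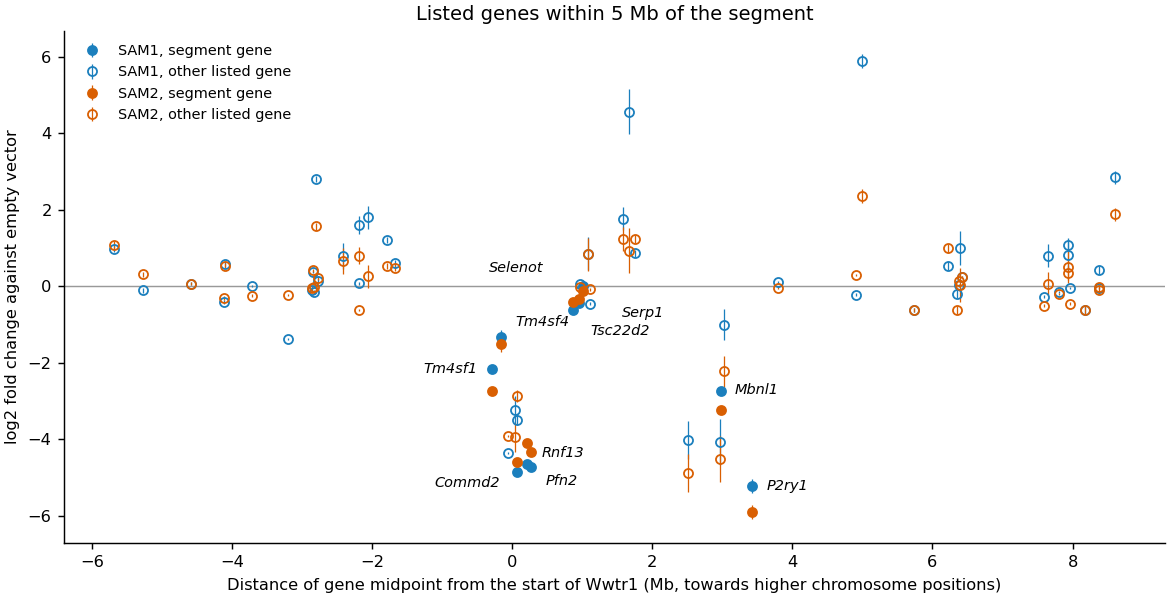
Log2 fold change against empty vector of each line (points, with the SE) by distance of the gene midpoint from the start of *Wwtr1* in Mb. Filled points are the 10 segment genes and open points all other listed genes. The lowered genes lie in 2 separate dips, with *Tsc22d2*, *Serp1* and *Selenot* near 0 between them. Open points of the second dip are of genes with few or no reads in the lines, whose fitted values depend on the pseudocount.

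The other 12 listed genes of the window showed which parts of it had low RNA. Beside *Wwtr1*, *Gm26671*, a long noncoding RNA, and *Gm43437*, of no known class, in the first stretch fell from means of 64.3 to 6.42 in SAM1 and 3.46 in SAM2, and from 278 to 23.9 and 37.0. *Sucnr1*, a succinate receptor between the spared genes and *Mbnl1*, had 26.6, 30.5 and 28.0 in empty vector, 0.949, 0 and 1.95 in SAM1, and 0 in all of SAM2. *Gm37589* within *Mbnl1* went from 33.3 to 1.28 and 0.659, and *Gm37488* from 20.5 to 9.38 and 3.85. Several of these genes passed the filter mainly through empty vector, since *Sucnr1* and *Gm37589* had 0 libraries above 10 in either line and *Gm26671* and *Gm37488* 1 in SAM1 and 0 in SAM2. In all, 6 of the 12 were called lower and 2 higher for both lines together, beside 27.0% and 26.8% of all genes. The segment had been located by such values, so these counts too are a description.

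Genes that lie among *Tsc22d2*, *Serp1* and *Selenot* or after them did not share one direction. *Gm8234*, a pseudogene with means of 6.33 in empty vector, 12.3 in SAM1 and 11.4 in SAM2, was not called in either line. In SAM1 it was called with replicate number as a block (0.853, limma, adjusted p = 0.0443). It was also called there without SAM1 replicate 3 (1.27, limma, adjusted p = 0.0153) or without empty vector replicate 1 (1.21, adjusted p = 0.0259). In SAM2 it was called without empty vector replicate 1 (1.196, limma, adjusted p = 0.0291). For both lines together it was called without empty vector replicate 1 (1.205, limma, adjusted p = 0.0413) or without SAM1 replicate 3 (1.011, adjusted p = 0.0425). *Eif2a*, a translation initiation factor, had means of 3731 ± 53.8 (SD, n = 3), 3853 ± 111 and 3676 ± 22.5 and was not called in either line, although quantile normalization gave it 0.12 in SAM1 (adjusted p = 0.00634). *Siah2*, a ubiquitin ligase of the hypoxia response, had means of 1503, 1092 and 1424, was called lower in SAM1 (adjusted p = 2.5e-07) and not in SAM2 (0.105), and differed between the lines by 0.38 ± 0.04 (limma, adjusted p = 3.53e-06). Without empty vector replicate 1 *Siah2* was called in SAM2 too, at -0.11. *Igsf10*, of the immunoglobulin superfamily, rose from 1042 to 1888 in SAM1 and 2450 in SAM2, a log2 fold change of 1.05 ± 0.15 for both lines (limma, adjusted p = 0.000252). *Med12l* rose from 12.4 to 41.8 and 29.1 (limma, adjusted p = 0.00411). *P2ry12*, another ADP receptor, overlaps *Med12l* by 46748 bases on the opposite strand and had 0, 1.05 and 0 in empty vector, 40.8, 23.7 and 25.4 in SAM1 and 3.96, 0 and 1.86 in SAM2. *P2ry12* was above 10 in 0 libraries of empty vector, 3 of SAM1 and 0 of SAM2. It passed the filter only through SAM1, so its place above empty vector there is not read as a result.

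Within 5 Mb of the window on either side, no listed gene was as low in both lines. In the 5 Mb before it, 1 of 18 listed genes was called lower and 8 higher, with a median log2 fold change of 0.29. In the 5 Mb after it 5 of 19 were called lower and 5 higher, with a median of 0.08. Of all genes 27.0% were called lower and 26.8% higher, close to the shares after the window, so nothing is read from these counts. A log2 fold change of -2 or lower in both lines was found for 0 of the 18 and 0 of the 19, and for 1 of the 703 other genes of the chromosome. The gene before *Tm4sf1*, *Nbea*, lies 1102 kb away and had means of 2881, 4389 and 3977. The gene after *P2ry1*, *Rap2b*, lies 353 kb away and had 1434, 1542 and 1390.

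As a share of all normalized counts, the 10 genes took 0.889% to 0.934% in empty vector, 0.162% to 0.164% in SAM1 and 0.149% to 0.151% in SAM2. The 22 listed genes of the window together took 1.34% to 1.39%, 0.201% to 0.203% and 0.197% to 0.198%.

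A scan of the genome with the same fold changes, which had located the segment, describes where other low runs lay. Of 14706 windows of 5 neighbouring listed genes, 19 had a median of at most -2 on the log2 scale in both lines, and 11 of these touch the segment. The other 8 lie on chromosome 15, with *Ank*, *Otulin*, *Trio* and *Dap* among their genes. Overlapping windows share genes and are not independent of each other. Among all genes with a mean of at least 1000 in empty vector, 28 had a log2 fold change of -2 or lower in both lines and 6 of them are in the window. At -4 or lower there were 4, namely *Commd2*, *Rnf13*, *Pfn2* and *Otulin*.

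**Figure D3:**
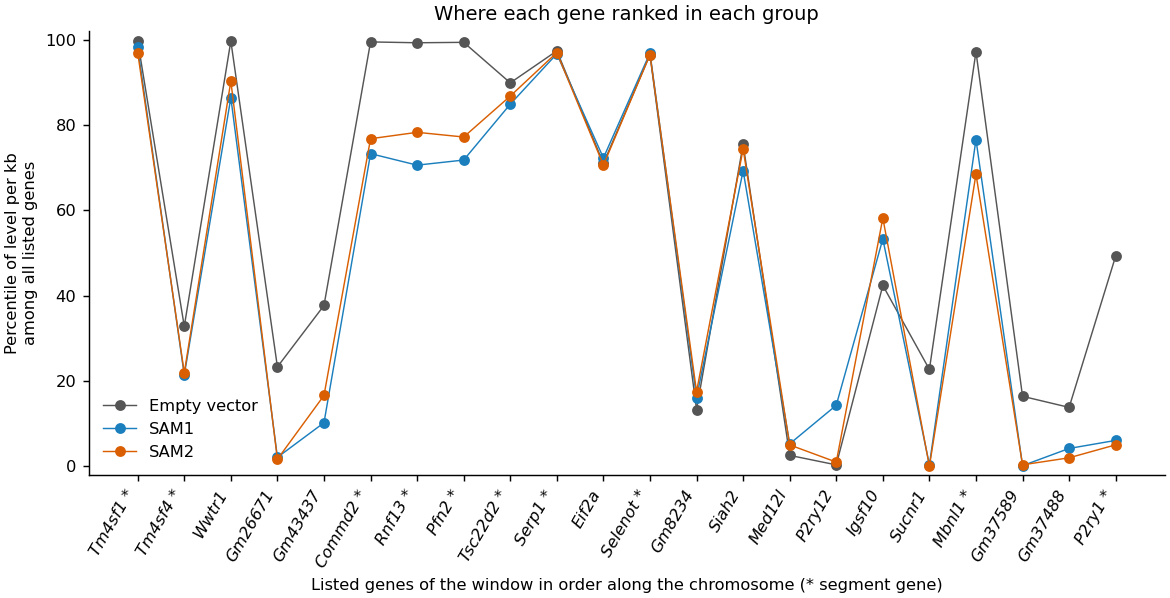
Percentile of the level per kb of exon among all 14791 genes with a length, for the 22 listed genes of the window in chromosome order. Points are the means of 3 libraries and asterisks mark the 10 segment genes. *Commd2*, *Rnf13*, *Pfn2* and *Mbnl1* leave the top of the scale in both lines, *P2ry1* drops from the middle to the bottom, and *Serp1* and *Selenot* stay where they were.

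Between the lines, the segment genes differed in both directions. SAM2 was higher than SAM1, on the log2 scale, by 0.27 ± 0.05 (SE) for *Commd2*, 0.55 ± 0.03 for *Rnf13* and 0.40 ± 0.03 for *Pfn2*. It was lower by a difference of -0.57 ± 0.04 for *Tm4sf1*, -0.51 ± 0.04 for *Mbnl1* and -0.68 ± 0.19 for *P2ry1*. The spared genes differed less, by 0.22 ± 0.04 for *Tsc22d2*, 0.10 ± 0.03 for *Serp1* and -0.14 ± 0.03 for *Selenot*. The value for *Tm4sf4* was -0.19 ± 0.19, or 0.16 after quantile normalization, and its lines overlapped. Of the 10 genes, 5 were called higher in SAM2 (31.1% of all genes), 4 lower (29.2%) and 1 was not called, with 7 calls in place of 9 after quantile normalization and 8 with edgeR or DESeq2, and the median difference was -0.02 beside -0.01 over all genes.

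Within the first stretch the sign was thus not uniform, since *Tm4sf1* at its start was lower in SAM2 and *Wwtr1*, *Commd2*, *Rnf13* and *Pfn2* further along were higher. Ordered by empty vector over SAM1, *P2ry1* came first, followed by *Commd2*, *Pfn2*, *Rnf13*, *Mbnl1*, *Tm4sf1*, *Tm4sf4*, *Tsc22d2*, *Serp1* and *Selenot*. In SAM2 the order was the same for all 10. For both lines together, *Commd2* and *Pfn2*, and *Pfn2* and *Rnf13*, differed from their neighbour in this order by less than the sum of their SEs.

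**Figure D4:**
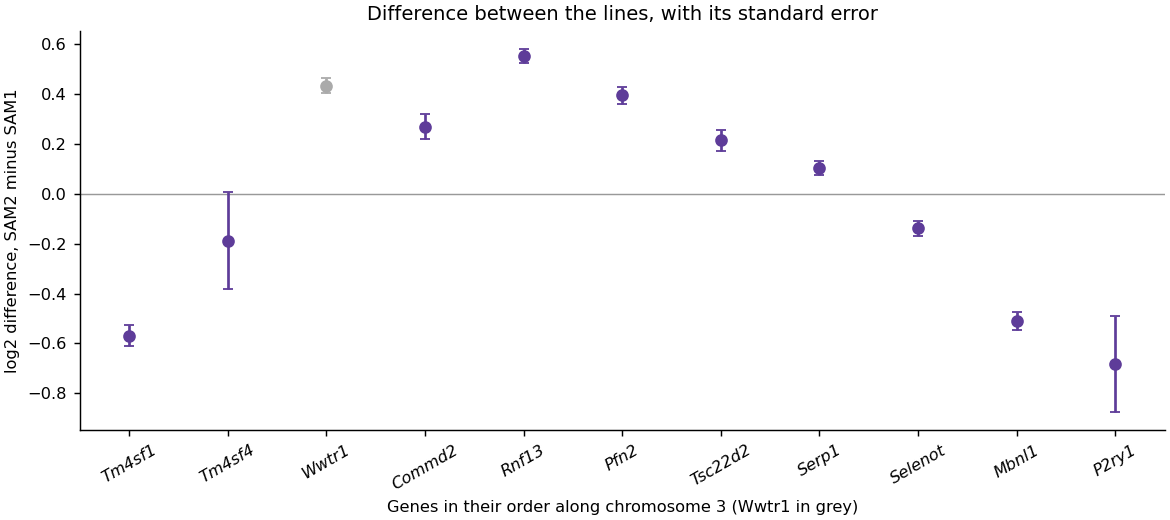
Log2 difference of SAM2 minus SAM1 (points, with the SE) for the 10 segment genes and, in grey, *Wwtr1*, in chromosome order. *Commd2*, *Rnf13* and *Pfn2* lie above 0 with *Wwtr1*, and *Tm4sf1*, *Mbnl1* and *P2ry1* lie below it. The bar of *Tm4sf4* reaches 0.

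The spread between libraries of a group was small beside the differences from empty vector of the lowered genes. The coefficient of variation of the 10 genes had a median of 4.15% in empty vector, 4.05% in SAM1 and 1.38% in SAM2. It was highest for the low genes, at 19.8% and 21.4% for *Tm4sf4* in empty vector and SAM1 and 32.1% for *P2ry1* in SAM2.

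Relatives of the 10 genes elsewhere in the genome were not among the genes that located the segment, although they were measured in the same libraries and listed with earlier results known. Of 46 listed relatives outside chromosome 3, 12 were called higher (26.1%) and 15 lower (32.6%) for both lines together, beside 26.8% and 27.0% of all genes. Their median log2 fold change was 0.01, and the lowest was -0.95 ± 0.25 (SE) for *Rnf130* (limma, adjusted p = 0.00883), a ligase of the family of *Rnf13*. *Commd2*, *Rnf13*, *Pfn2*, *Mbnl1* and *P2ry1* were picked for low values in this same comparison and the relatives were not. Nothing is therefore read from the distance between them.

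Of 9 other COMMD genes, 2 were called higher and 2 lower for both lines together, beside 26.8% and 27.0% of all genes. The widest were *Commd1* at -0.60 ± 0.08 (SE; limma, adjusted p = 0.000169) and *Commd6* at 0.53 ± 0.06 (adjusted p = 7.79e-05). Of 8 ligases related to *Rnf13*, 2 were called higher and 3 lower, beside the same shares. *Rnf128* rose most, by 2.17 ± 0.06 (limma, adjusted p = 1.45e-08). With so few genes in a family, nothing is read from these counts. *Pfn1*, the common profilin, had 0.13 ± 0.08 and was not called, and *Pfn4* fell by 0.95 on the log2 scale (limma, adjusted p = 0.00307).

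Among the relatives of the spared genes, *Tsc22d3*, a glucocorticoid-induced gene, fell by 0.92 (limma, adjusted p = 4.11e-06) and *Tsc22d1* rose by 0.72 ± 0.03 (SE; adjusted p = 1.96e-07). *Serp2* rose by 0.63 ± 0.15 (limma, adjusted p = 0.00563). Of 17 other genes of selenoproteins or of their synthesis, 2 were called higher and 6 lower, beside 26.8% and 27.0% of all genes. Nothing is read from these counts. *Selenop* was at 1.57 ± 0.18 (limma, adjusted p = 6.53e-05) and *Selenow* at -0.58 ± 0.06 (adjusted p = 2.35e-05). The other 9 of the 17, like *Selenot*, were not called for both lines together.

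The muscleblind relatives of *Mbnl1* were called higher for both lines together. *Mbnl2* rose by 0.96 ± 0.06 (SE, limma, adjusted p = 1.16e-06) and *Mbnl3* by 1.69 ± 0.34 (adjusted p = 0.00223). Of the CELF genes, *Celf4* rose by 1.13 ± 0.18 (limma, adjusted p = 0.000508), and *Celf2* was lower, at -0.62 ± 0.06 (adjusted p = 1.77e-05). In all, 4 of 6 listed muscleblind and CELF genes were called higher and 1 lower, beside 26.8% and 27.0% of all genes. With so few genes, nothing is read from this count. *Mbnl2* and *Pfn1*, the closest relatives of *Mbnl1* and *Pfn2*, and *Celf2* were chosen after their values were seen. *P2ry2*, the P2Y receptor outside chromosome 3, fell by 0.44 on the log2 scale (limma, adjusted p = 0.00423). No L6 relative outside the chromosome was listed beside *Tm4sf1* and *Tm4sf4*.

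**Figure D5:**
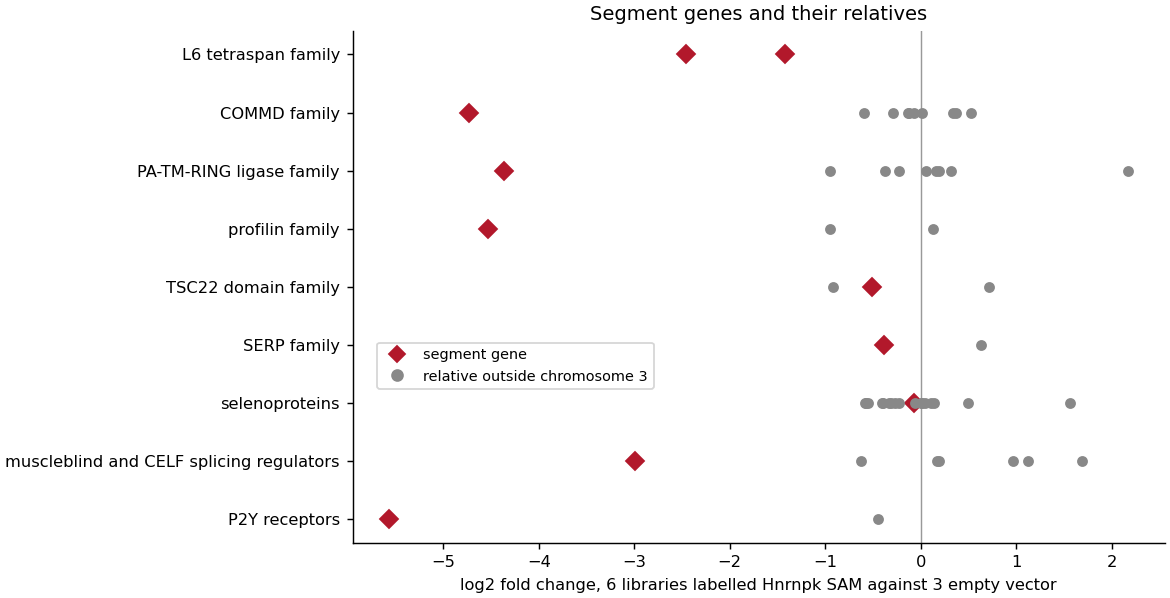
Log2 fold change of both lines together against empty vector for the segment genes (diamonds) and their listed relatives outside chromosome 3 (circles), by family. Diamonds of 7 families lie left of every circle of their own row or stand alone, and those of *Tsc22d2* and *Selenot* lie among their relatives. The segment genes were chosen by these values and the relatives were not, so their places are a description.

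Across the 9 libraries, the listed gene whose log2 level followed that of a segment gene most closely lay in the window for 1 of the 10, *Rnf13*, whose nearest was *Wwtr1* (Pearson r = 0.9997). For *Pfn2* it was *Otulin* (r = 0.9999), for *Mbnl1* it was *Ank* (r = 0.9993) and for *Tm4sf1* it was *Dap* (r = 0.9991), all of chromosome 15. *Commd2* followed *Sgk1* (r = 0.9995) and *P2ry1* followed *Spats2l* (r = 0.9974), and for *Tm4sf4*, *Tsc22d2*, *Serp1* and *Selenot* the nearest were *Msl2* (r = 0.9826), *Ptbp3* (r = 0.9987), *Pfdn2* (r = 0.9986) and *Gm9905* (r = 0.968). With 3 groups of 3 libraries, these values mostly tell that the group means had the same order and spacing.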

How the data were processed

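PolyA+ RNA of 9 MEF libraries was converted with the NEBNext Ultra II Directional kit and read from both ends (43 bases each, Illumina NextSeq). The authors checked reads with FastQC (0.11.0), aligned them to GRCm39 with TopHat2, using Bowtie2 and SAMtools, allowing 3 mismatches and 20 multihits, obtained gene counts from HTSeq, scaled them by DESeq2 size factors and deposited this signal of normalized counts for genes above 10 in at least 30% of libraries, all 15184 of which passed when tested. Whether counting used the strand is not given in the sources used here. Groups and replicate numbers came from the sample titles. In 8 libraries 100% of values were whole reads, within 0.01 of a read, after division by the value of 1 read. SAM2 replicate 1, whose step lies near 1, was not recovered. Alternatives on recovered reads therefore held only replicates 2 and 3 of SAM2.

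Since the deposited unit is not a raw count, log2(value + 1) was fitted over all genes with limma (3.58.1, eBayes with trend) in R 4.3.3, with Benjamini-Hochberg adjustment. One fit set the 6 libraries labelled *Hnrnpk*_SAM against 3 of empty vector, as in the study, and another held 3 groups. Alternatives were other pseudocounts, filters and normalizations, the replicate block, edgeR (4.0.16) and DESeq2 (1.42.0) on recovered reads, and each library left out. The fits were tested on simulated data. The 10 genes, the gene lists and the motifs were chosen with earlier results of these data known. Apart from the 10 genes, the text names *Wwtr1*, *Hnrnpk*, the other listed genes of the window, the pair of listed genes on each side, the pair of called relatives per family with the largest change, and the gene most like each of the 10. Other names are chosen after their values were seen. Of the gene names, 14791 were found once in GENCODE vM39, 68 more than once and 325 not at all, and only the first had positions and lengths. Genes below the filter were not analysed here.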

Additional observations from a re-analysis of the deposited data

Results flagged for a closer look

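Beside the 10 genes, several neighbours differed between SAM1 and SAM2 by a test of the difference itself (limma over all genes, n = 3 libraries a line, threshold 0.05 after adjustment). On the log2 scale of SAM2 minus SAM1 the difference was 0.43 for *Wwtr1* and 0.62 for *Gm43437* in the first lowered stretch. After the spared genes it was 0.38 for *Siah2*, -3.64 for *P2ry12* and 0.38 for *Igsf10*, and within *Mbnl1* it was -1.23 for *Gm37488*. The difference for *Gm37488* was not called after quantile normalization (-0.66) or without SAM1 replicate 1 (-1.15), SAM2 replicate 2 (-1.12) or SAM2 replicate 3 (-0.91), and that for *Gm43437* not with edgeR (0.61). Next to the segment it was -0.68 for *Mab21l1*, -0.15 for *Rap2b* and 0.51 for *Dhx36*. *P2ry12* was the widest of these, and it was near 0 reads in empty vector and in SAM2 (means of 0.350 and 1.94) and present in all 3 libraries of SAM1 (23.7 to 40.8). Since *P2ry12* passed the filter only through SAM1, its difference is a description. All 3 libraries of *Dhx36* in SAM1 were below those of empty vector and all 3 in SAM2 above them. *Hnrnpk* itself lay on opposite sides of empty vector, lower in all 3 libraries of SAM1 and higher in all 3 of SAM2, which was marked for the sides alone; the difference of 0.15 between the lines was called (limma, adjusted p = 0.000288), and after quantile normalization both lines lay above empty vector. With 3 libraries a group, single libraries were not tested for standing apart in a given gene. Recovered reads of whole libraries were compared in pairs within a group, as chi-square per gene. It was 10.7 to 12.9 between empty vector libraries and 2.28 between SAM2 replicates 2 and 3. Between SAM1 replicates 1 and 3 it was 1.45, and SAM1 replicate 2 had 7.83 and 9.3 against these.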

How the results depend on the processing

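Over 712 alternative values of the 10 genes, 0 turned the sign of a called value, 656 moved by less than the spread between libraries and 56 by more. Quantile normalization moved most genes furthest, as from -2.17 to -1.84 for *Tm4sf1* and from -1.33 to -1.77 for *Tm4sf4* in SAM1, and the difference between lines for *Tm4sf4* went from -0.19 to 0.16. For *Selenot* it gave 0.16 in SAM1 and -0.03 in SAM2, where the number of the 10 genes called lower went from 10 to 9. Between the lines, 9 of the 10 were called, 7 with quantile normalization and 8 with edgeR, with DESeq2 and with the filter of above 10 in all libraries. A pseudocount of 10 moved *P2ry1* in SAM2 from -5.91 to -5.09. *P2ry1* and *Tm4sf4* have few reads, and *P2ry1* had no value with the filter of above 10 in all 9 libraries nor *Tm4sf4* with that of a mean of at least 100. Under these filters, which tested 13171 and 11341 genes, the number of other window genes called lower went from 6 to 2 and 2 for both lines, from 7 to 3 and 3 in SAM1 and from 6 to 2 and 2 in SAM2, because low genes were left out. *Hnrnpk* turned to 0.16 (adjusted p = 0.0199) for both lines, 0.094 in SAM1 (adjusted p = 0.00502) and 0.22 in SAM2 (adjusted p = 4.59e-06, a gained call) with quantile normalization.

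Deviations of same-numbered libraries of different groups correlated weakly (mean r 0.0531 over 9 pairs, 0.00237 to 0.117). Those of libraries with different numbers had a mean r of -0.0265 over 18 pairs (-0.122 to 0.046). Of the 9 libraries, 8 correlated best with their own number, and the main fits had no replicate block. With the replicate block, 7343 genes were called for both lines in place of 8179. In SAM1 the number was 11631 in place of 11275, in SAM2 11095 in place of 10699, and between the lines 9812 in place of 9162. Of 2096 values of other named genes 34 lost their call and 30 gained one. *Gm37488* was the least stable of the window, being no longer called in SAM1 without empty vector replicate 3 or any 1 library of SAM1 (-1.08 to -0.73).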
